A study of Mus musculus with 8 samples.

Results

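Hearts of Trim21 knockout mice with experimental autoimmune myocarditis (EAM) were set against hearts of control mice, over every gene with enough transcript to be tested. This comparison uses 5 of the 8 libraries of the series. The deposited table lists 34745 genes, of which 10393 reached at least 1 FPKM (fragments mapped to a gene, scaled to its transcript length and to the library's total) in at least 2 of the 8 libraries and were tested. The EAM Trim21 KO group holds 3 hearts of mice without Trim21, collected at day 21 of EAM, which was induced by 2 immunisations with a peptide of cardiac alpha-myosin emulsified with complete Freund's adjuvant. The EAM wild type group holds 3 hearts of immunised Balb/c mice at the same day, and its values stand beside the comparison. The control group holds 2 wild type hearts at day 0. Balb/c is given as the strain of all 8 hearts, and the labels do not describe how the knockout allele was made or how many crosses to Balb/c followed. The treatment text says that control mice received adjuvant with saline, whereas the labels place control hearts at day 0. No Trim21 KO heart at day 0 is among the 8, so genotype, disease and day cannot be told apart in this comparison. The labels give no hour of collection. Each library is called a heart here, though the labels do not say how libraries of a group relate to animals.

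TRIM21 attaches ubiquitin to other proteins as an E3 ligase, serves as a cytosolic receptor for the constant part of antibodies, and is itself induced by interferon. In EAM, T cells primed against cardiac myosin enter the heart and recruit macrophages and other myeloid cells, and fibroblasts then deposit matrix. The title of the series names IL-17A signalling and the adaptor TRAF3 in cardiac fibroblasts as the subject of the study.

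Depth, read from the steps that 1 fragment makes in the lowest values, was 14980000, 15650000 and 16370000 fragments in EAM Trim21 KO hearts 1 to 3, against 16930000 and 14710000 in control hearts 1 and 2. Pearson's correlation of log2(FPKM + 1) over the tested genes was 0.959 to 0.977 between EAM Trim21 KO and control libraries, and 0.968 to 0.987 between libraries of 1 group. Transcripts of atrial muscle split the knockout group. Myl7, the atrial myosin light chain, stood at 1640.0, 1191 and 0.621 FPKM in EAM Trim21 KO hearts 1 to 3, against 1.20 and 1.04 FPKM in control hearts. Sln, which encodes the atrial calcium pump regulator sarcolipin, stood at 531, 421 and 0.119 FPKM in EAM Trim21 KO hearts, against 0.459 and 0.132 FPKM in control hearts. Summed over 10 atrial markers, FPKM ranged from 304 to 5098 in EAM Trim21 KO hearts and from 172 to 214 in control hearts. EAM Trim21 KO hearts 1 and 2 thus held far more atrial transcript than either control heart, and no atrial marker passed the test. Igkc, the antibody kappa constant region of plasma cells, was also lowest in the third knockout heart, at 70.3, 96.6 and 8.04 FPKM in EAM Trim21 KO hearts, against 3.55 and 5.75 FPKM in control hearts. Scgb1a1, a lung airway gene, stood at 90.9, 0.403 and 0 FPKM in EAM Trim21 KO hearts and was listed at 0 in both control hearts. The summed level of 15 general cardiomyocyte markers was 17474 to 18619 FPKM in EAM Trim21 KO hearts and 20427 to 21515 FPKM in control hearts. Results below are also given, where it matters, without EAM Trim21 KO hearts 1 and 2 together.

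**Figure D1:**
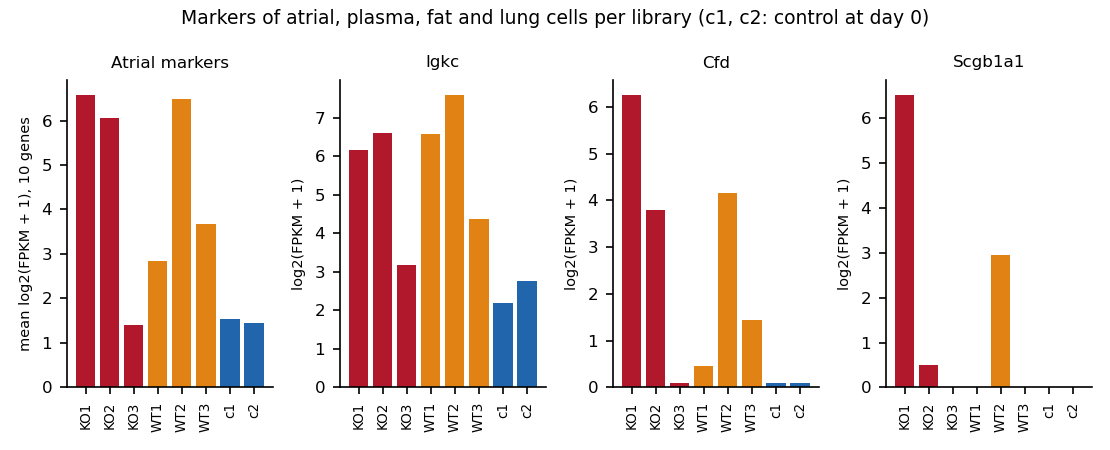
Levels of marker transcripts in each heart (bars, log2(FPKM + 1), and for the 10 atrial markers the mean of these values), with EAM Trim21 KO hearts (KO1 to KO3) left of EAM wild type (WT1 to WT3) and control hearts (c1, c2). The atrial mean is 6.58 and 6.07 in EAM Trim21 KO hearts 1 and 2 and 1.41 in heart 3, against 1.53 and 1.44 in control hearts.

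Trim21 itself (mm10 chr7:102557922-102565469, minus strand) was nearly absent from the knockout hearts. It stood at 0.0481, 0 and 0.0220 FPKM in EAM Trim21 KO hearts, against 2.98, 3.29 and 3.37 FPKM in EAM wild type hearts and 1.98 and 2.18 FPKM in control hearts. The change from control was -1.59 on the log2(FPKM + 1) scale (SE 0.11, adjusted p = 0.000189, limma with Benjamini-Hochberg adjustment over all tested genes). All log2 changes below are on this scale, which understates the change of low genes.

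Between EAM Trim21 KO and control hearts 142 genes passed an adjusted p of 0.05, which is 1.37% of those tested. Of these, 59 rose (0.568%) and 83 fell (0.799%), and at least a 2-fold change on this scale was reached by 28 that rose and 40 that fell. The median change over all tested genes was -0.03, with 4642 positive and 5749 negative changes. The count moved with single libraries. It was 17 up and 21 down without control heart 1, 11 up and 24 down without control heart 2, and 27 up and 38 down without EAM Trim21 KO heart 2. It was 36 up and 58 down without EAM Trim21 KO heart 1, and 93 up and 71 down without EAM Trim21 KO heart 3. Without EAM Trim21 KO hearts 1 and 2 together, 19 rose and 27 fell, and 29 of the 142 genes were among them. A total of 28 of the 142 genes passed with each library left out in turn. Between EAM Trim21 KO and EAM wild type hearts, which share the day and the immunisation, 321 genes passed (3.09%), with 30 higher in EAM Trim21 KO hearts (0.289%) and 291 lower (2.8%). Of the 142 genes, 64 also passed in that contrast. The shares of all tested genes given here are the background for the counts in gene lists below.

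**Figure D2:**
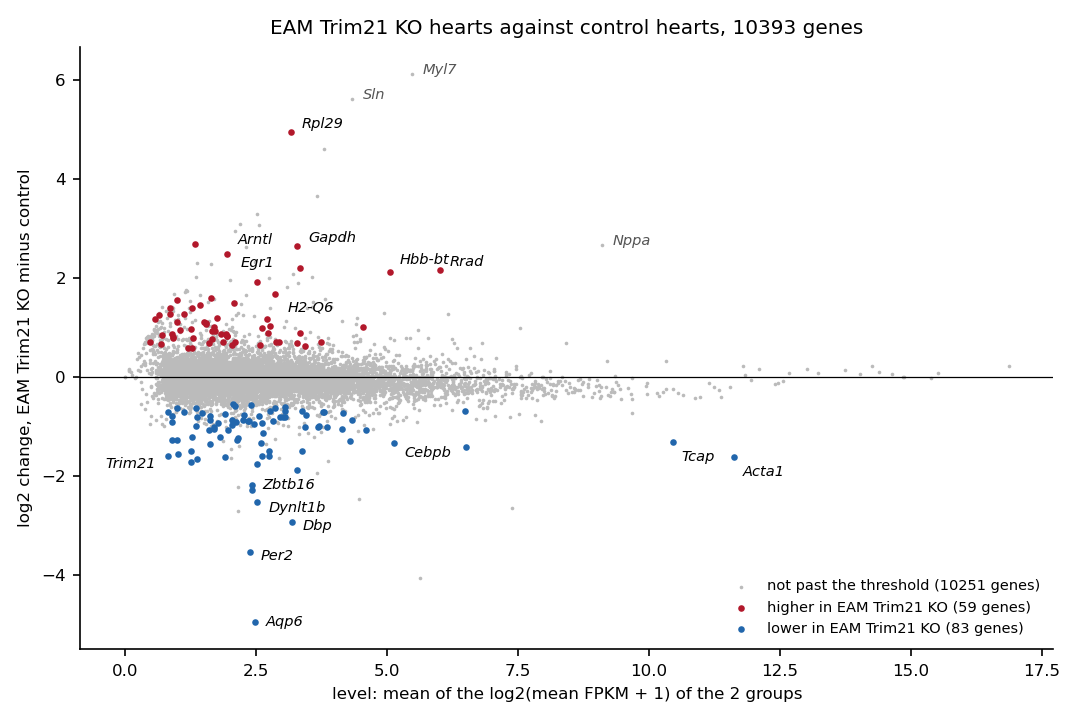
Each point is a tested gene, placed by its level (x axis, mean of the log2(mean FPKM + 1) of both groups) and by its log2 change in EAM Trim21 KO minus control hearts (y axis), with coloured points for the 59 genes that rose and the 83 that fell. Rpl29 lies at 4.95 and Aqp6 at -4.94.

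The clearest group was the circadian clock. In its central loop BMAL1 (encoded by Arntl) pairs with CLOCK or NPAS2 on E-box sequences and turns on the Per and Cry repressors and the output factors Dbp, Tef and Hlf, while the nuclear receptors REV-ERB (Nr1d1 and Nr1d2) and ROR act on Arntl through a shared element. Heart cells run this loop themselves, and it sets daily rhythms of metabolism and ion channels. In EAM Trim21 KO hearts the activators Arntl and Npas2 rose. In the list of repressor and output genes 8 of 11 fell, against 0.799% of all tested genes. The repressors Cry1 and Nfil3 were listed with the activators instead, and neither passed.

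Sequences are shown for 5 clock genes because they carry the elements through which the loop is known to act. Each is the RefSeq window on GRCm38.p6 of 250 bases before to 50 bases after a transcript start, read 5′ to 3′ on the gene's strand. Capitals mark the E-box CACGTG, the D-box TTATGTAA or TTACGTAA, and the ROR element AGGTCA, each searched on both strands. The windows are Ciart at chr3:95882179-95882478 (minus), Per1 at chr11:69098699-69098998 (plus), Tef at chr15:81802423-81802722 (plus), Per3 at chr4:151044616-151044915 (minus) and Arntl at chr7:113207261-113207560 (plus).
Ciart: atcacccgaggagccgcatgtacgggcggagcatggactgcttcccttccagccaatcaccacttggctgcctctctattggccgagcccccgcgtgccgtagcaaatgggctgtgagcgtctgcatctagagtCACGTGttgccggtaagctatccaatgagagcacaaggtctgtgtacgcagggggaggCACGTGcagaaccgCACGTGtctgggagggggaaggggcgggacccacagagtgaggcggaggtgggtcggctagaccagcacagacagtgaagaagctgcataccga
Per1: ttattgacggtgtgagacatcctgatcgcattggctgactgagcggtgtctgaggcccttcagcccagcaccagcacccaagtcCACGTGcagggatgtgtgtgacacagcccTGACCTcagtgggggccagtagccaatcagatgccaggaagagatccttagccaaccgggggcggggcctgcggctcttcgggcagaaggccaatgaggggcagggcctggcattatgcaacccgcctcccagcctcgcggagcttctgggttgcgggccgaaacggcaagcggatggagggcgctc
Tef: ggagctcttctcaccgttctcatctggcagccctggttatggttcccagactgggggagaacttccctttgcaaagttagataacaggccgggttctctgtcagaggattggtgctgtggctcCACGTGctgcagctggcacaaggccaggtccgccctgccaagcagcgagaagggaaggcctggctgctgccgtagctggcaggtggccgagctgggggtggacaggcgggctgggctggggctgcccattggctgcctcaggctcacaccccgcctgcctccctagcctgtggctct
Per3: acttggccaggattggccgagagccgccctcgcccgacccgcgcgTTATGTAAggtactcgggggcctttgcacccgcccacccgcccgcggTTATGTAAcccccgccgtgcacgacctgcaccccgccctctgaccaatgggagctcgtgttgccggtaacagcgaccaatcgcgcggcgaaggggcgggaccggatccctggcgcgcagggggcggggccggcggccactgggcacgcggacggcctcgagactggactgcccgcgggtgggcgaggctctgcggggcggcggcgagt
Arntl: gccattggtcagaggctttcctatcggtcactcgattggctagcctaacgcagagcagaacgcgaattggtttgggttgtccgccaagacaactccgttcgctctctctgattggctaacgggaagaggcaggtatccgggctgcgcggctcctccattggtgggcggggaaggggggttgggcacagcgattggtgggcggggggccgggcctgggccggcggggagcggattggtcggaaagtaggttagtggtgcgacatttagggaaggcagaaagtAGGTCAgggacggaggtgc

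Ciart, a repressor of the loop, had 3 E-boxes that begin 116, 58 and 44 bases before the start. Per1 had an E-box at 166 and an ROR element at 137 bases before the start, and Tef an E-box at 127. The Per3 window held D-boxes at 205 and 158 bases before the start, and the Arntl window an ROR element at base 32 after it. Of the 11 repressor and output genes, 10 had a RefSeq window, and 4 of them held an E-box in at least 1 window, against 7.15% of all 32851 windows. A D-box was found in 1 of the 10, against 1.06% of all windows, and an ROR element in 2 of the 10, against 16.3%. Genes with several starts had several windows, and a match is a description of the letters only.

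Among the activators, Arntl stood at 7.22, 8.19 and 8.56 FPKM in EAM Trim21 KO hearts, against 0.766, 1.89 and 1.47 FPKM in EAM wild type hearts and 1.12 and 0.211 FPKM in control hearts. Its level was above every other library in all 3 knockout hearts, a change from control of 2.49 (SE 0.25, adjusted p = 0.00234) and from EAM wild type of 1.95 (adjusted p = 0.00456). Npas2, which can take the place of CLOCK, stood at 1.74, 2.38 and 1.40 FPKM in EAM Trim21 KO hearts, against 0.113, 0.343 and 0.432 FPKM in EAM wild type hearts and 0.179 and 0.151 FPKM in control hearts. It rose by 1.27 (SE 0.17, adjusted p = 0.00887). Clock itself did not reach the level for testing, at 0.573, 1.04 and 0.766 FPKM in EAM Trim21 KO hearts and 0.492 and 0.284 FPKM in control hearts. Cry1, a repressor whose peak comes late in the cycle, changed by -0.12 (adjusted p = 0.739). Nfil3, which represses through the D-box, stood at 12.1, 8.61 and 9.71 FPKM in EAM Trim21 KO hearts, against 8.34 and 4.16 FPKM in control hearts (0.67, adjusted p = 0.26). The median change of the 4 tested genes of this list was 0.97, with 2 that rose.

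Of the repressors, Per2 differed most. It stood at 1.03, 0.216 and 0.465 FPKM in EAM Trim21 KO hearts, against 10.7, 5.30 and 5.36 FPKM in EAM wild type hearts and 15.4 and 17.9 FPKM in control hearts (change from control -3.52, SE 0.29, adjusted p = 0.00057). The groups did not overlap, and the wild type EAM hearts lay between the other groups. Per1 stood at 2.20, 2.24 and 1.91 FPKM in EAM Trim21 KO hearts, against 11.7, 10.8 and 8.42 FPKM in EAM wild type hearts and 10.7 and 8.50 FPKM in control hearts (-1.76, SE 0.16, adjusted p = 0.000826). Here the EAM wild type hearts overlapped the control hearts and only the knockout hearts stood low. Per3 stood at 0.636, 0.307 and 0.332 FPKM in EAM Trim21 KO hearts and 2.48 and 3.60 FPKM in control hearts (-1.50, SE 0.20, adjusted p = 0.00732). Nr1d2, or REV-ERB beta, stood at 2.71, 3.37 and 2.48 FPKM in EAM Trim21 KO hearts and 7.58 and 9.68 FPKM in control hearts (-1.32, SE 0.16, adjusted p = 0.00477). Ciart stood at 0.252, 0.272 and 0.332 FPKM in EAM Trim21 KO hearts and 1.56 and 2.71 FPKM in control hearts (-1.26, SE 0.19, adjusted p = 0.0161).

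The output factors Dbp, Tef and Hlf, which share the D-box as binding site, fell too. Dbp stood at 3.19, 1.80 and 1.76 FPKM in EAM Trim21 KO hearts, against 32.5, 30.3 and 27.1 FPKM in EAM wild type hearts and 15.4 and 34.2 FPKM in control hearts (-2.91, SE 0.30, adjusted p = 0.00234). Its control hearts differed from each other by more than any pair of EAM wild type hearts did, and the knockout hearts lay below both. Tef stood at 2.96, 3.23 and 2.74 FPKM in EAM Trim21 KO hearts, against 7.19 and 6.09 FPKM in control hearts (-0.94, SE 0.13, adjusted p = 0.00829). Hlf stood at 0.795, 0.711 and 0.638 FPKM in EAM Trim21 KO hearts and 1.70 and 1.86 FPKM in control hearts (-0.70, adjusted p = 0.0225).

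In the list of 11 repressor and output genes, the 3 that did not pass were Cry2, Bhlhe41 and Nr1d1. Cry2 stood at 3.52, 2.95 and 2.76 FPKM in EAM Trim21 KO hearts and 5.19 and 4.83 FPKM in control hearts (adjusted p = 0.051). Nr1d1, or REV-ERB alpha, is driven by the same E-boxes but had overlapping groups, at 13.5, 22.8 and 18.5 FPKM in EAM Trim21 KO hearts and 10.1 and 30.6 FPKM in control hearts (0.01, adjusted p = 0.994). Nr1d1 in EAM wild type hearts was higher, at 50.5, 57.4 and 44.3 FPKM. Over the 11 genes the median change was -1.26, against -0.03 for all genes, and it lay between -1.56 and -0.54 under the alternatives tried. In 10 of the 11 all knockout hearts lay below both control hearts, against 22.4% of all tested genes. Without EAM Trim21 KO hearts 1 and 2 the median was -1.21, with 3 genes that fell. Against EAM wild type hearts, 9 of these 11 were lower in EAM Trim21 KO hearts. Of Arntl, Npas2, Cry1 and Nfil3, the 4 tested genes of the other clock list, 3 were higher there. The calls of Arntl, Per1, Per2 and Dbp held with each library left out in turn. Without control heart 2 the calls of Per3 (adjusted p = 0.0963), Nr1d2 (0.0633), Ciart (0.161), Tef (0.0514), Hlf (0.244) and Npas2 (0.0979) were lost. Without control heart 1 those of Tef (0.105), Hlf (0.144) and Npas2 (0.08) were lost. The call of Ciart was lost without EAM Trim21 KO heart 2 (0.0589), and that of Hlf without EAM Trim21 KO heart 1 (0.0515), 2 (0.0882) or 3 (0.0513). These transcripts cycle over the day, and the labels give no hour at which each heart was taken.

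**Figure D3:**
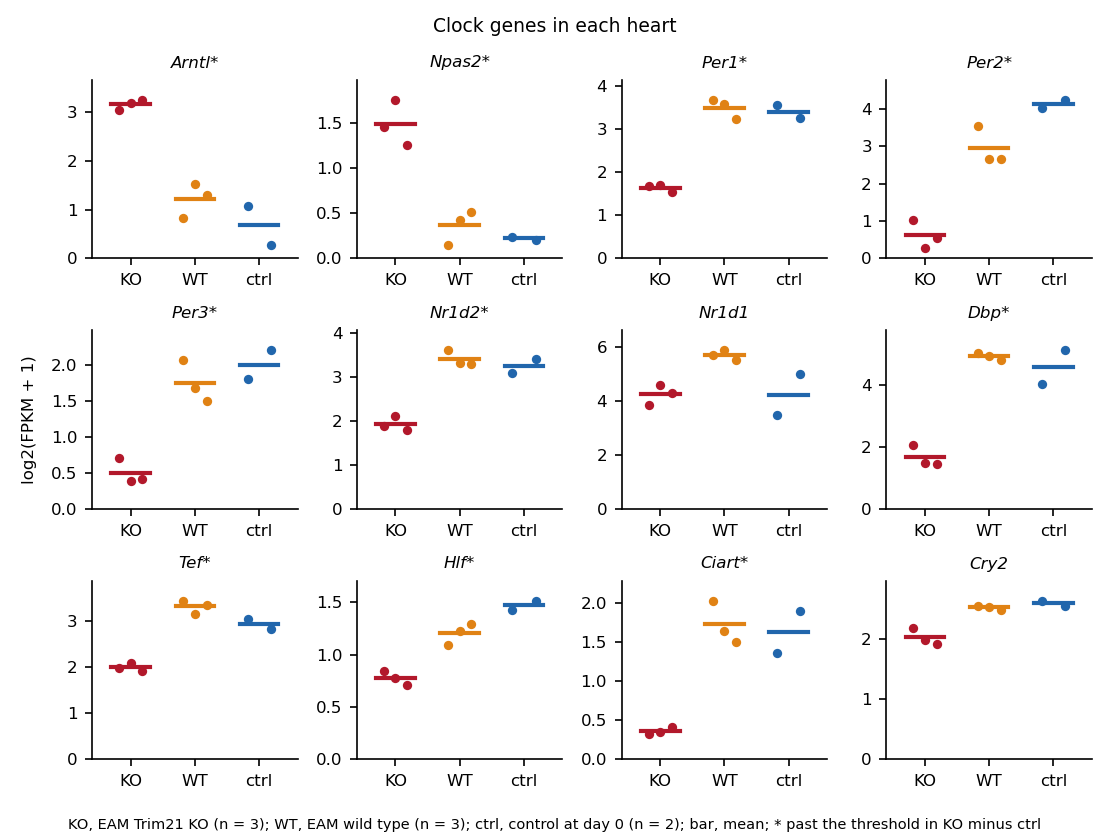
Level of 12 clock genes in each heart (points, log2(FPKM + 1), bars for the group means), with EAM Trim21 KO left of EAM wild type and control. Arntl and Npas2 stand highest in EAM Trim21 KO hearts, while Per1, Per2, Per3, Nr1d2, Dbp, Tef, Hlf and Ciart stand lowest there.

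Genes known to respond to glucocorticoid hormone formed a further group that was low in EAM Trim21 KO hearts. Of 14 tested, 6 fell and none rose, against 0.799% and 0.568% of all tested genes. The median change was -0.85 and lay between -1.09 and -0.58 under the alternatives. Zbtb16, a zinc finger transcription factor, stood at 1.39, 1.90 and 1.23 FPKM in EAM Trim21 KO hearts, against 1.54, 1.96 and 2.04 FPKM in EAM wild type hearts and 13.9 and 7.45 FPKM in control hearts (-2.17, SE 0.22, adjusted p = 0.00234). The EAM groups overlapped, and the difference between them did not pass (-0.19, adjusted p = 0.637). Fkbp5, the cochaperone that dampens the hormone's receptor, stood at 1.01, 0.843 and 0.910 FPKM in EAM Trim21 KO hearts, against 1.71, 1.50 and 1.06 FPKM in EAM wild type hearts and 4.21 and 3.64 FPKM in control hearts (-1.36, SE 0.14, adjusted p = 0.00234). Map3k6, a stress kinase, stood at 1.35, 1.03 and 1.11 FPKM in EAM Trim21 KO hearts and 5.58 and 5.56 FPKM in control hearts (-1.61, SE 0.12, adjusted p = 0.000309).

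Tsc22d3, the leucine zipper protein GILZ, stood at 9.34, 8.01 and 6.90 FPKM in EAM Trim21 KO hearts and 21.0 and 14.0 FPKM in control hearts (-1.01, adjusted p = 0.0414). Mt2, a metallothionein that binds zinc, stood at 14.5, 12.5 and 8.02 FPKM in EAM Trim21 KO hearts, against 41.6, 35.1 and 33.2 FPKM in EAM wild type hearts and 24.7 and 34.4 FPKM in control hearts (-1.28, SE 0.24, adjusted p = 0.039). Per1, given above, is the sixth gene of this list that fell and belongs to the clock as well. Without EAM Trim21 KO hearts 1 and 2 the list's median was -0.86, with 5 genes that fell. Zbtb16, Fkbp5 and Map3k6 passed with each library left out in turn. The call of Mt2 was lost in 5 of the 8 leave-outs (adjusted p up to 0.303, without control heart 2) and that of Tsc22d3 in 7 (up to 0.269, without control heart 1). In the contrast with EAM wild type hearts 4 of the 14 were lower in EAM Trim21 KO hearts. Of 14 members with a RefSeq window, 2 held the receptor motif TGTTCT, which 19% of all windows hold.

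Heat shock chaperones had low values in the knockout hearts, with no call over all 8 libraries and up to 4 under the alternatives. All knockout hearts lay below both control hearts in 14 of the 16 tested, against 22.4% of all tested genes, with a median change of -0.46. The inducible Hsp70 gene Hspa1b stood at 0.905, 0.661 and 0.436 FPKM in EAM Trim21 KO hearts, against 96.9, 28.1 and 17.2 FPKM in EAM wild type hearts and 16.2 and 5.67 FPKM in control hearts. Its change from control was -2.69 (SE 0.62, adjusted p = 0.0886), while the difference from EAM wild type hearts passed (-4.49, adjusted p = 0.00592). Hspa1b passed against control with a pseudocount of 0.1 (-3.71, adjusted p = 0.0314), with only the EAM Trim21 KO and control libraries in the fit (adjusted p = 0.0308) and without EAM wild type heart 1 (adjusted p = 0.016). Hspa1a, a near copy of Hspa1b between which reads can be split, had 1.69, 0.862 and 0.494 FPKM in EAM Trim21 KO hearts and 13.4 and 4.70 FPKM in control hearts (-2.21, adjusted p = 0.165), and passed without EAM wild type heart 1 (adjusted p = 0.0461). The chaperone genes Hsph1 (0.0223) and Dnaja1 (0.00913) also passed without that heart, and with only the EAM Trim21 KO and control libraries in the fit (0.0415 and 0.0239). Of 18 immediate early genes, which respond to stimulation within minutes, 2 rose and 1 fell. Egr1, a zinc finger factor, stood at 10.1, 12.3 and 8.48 FPKM in EAM Trim21 KO hearts, against 9.05, 4.30 and 5.69 FPKM in EAM wild type hearts and 1.80 and 2.07 FPKM in control hearts (1.93, SE 0.25, adjusted p = 0.00675). Fos stood at 5.72, 5.71 and 2.37 FPKM in EAM Trim21 KO hearts and 0.732 and 0.789 FPKM in control hearts (1.60, SE 0.31, adjusted p = 0.0462). Ier5, a regulator of the heat shock factor HSF1, stood at 7.78, 8.54 and 8.73 FPKM in EAM Trim21 KO hearts and 18 and 16.9 FPKM in control hearts (-0.98, adjusted p = 0.0488). The call of Egr1 was lost without control heart 1 (adjusted p = 0.0744) or 2 (0.0633). That of Fos was lost in 5 of the 8 leave-outs (up to 0.269, without control heart 2) and that of Ier5 in 6 (up to 0.269, without control heart 1).

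Genes of antigen presentation by MHC class I stood above control in EAM Trim21 KO hearts. This pathway loads peptides cut by the immunoproteasome onto class I chains with beta-2 microglobulin and shows them to cytotoxic T cells, and interferon raises it in most cells. Of 18 tested genes, 3 rose and none fell, against 0.568% and 0.799% of all tested genes. The median change was 0.49, between 0.21 and 0.64 under the alternatives. A positive change was found in 16 of the 18, against 4642 of all 10393 tested genes. In 14 of the 18 all knockout hearts lay above both control hearts, against 14.1% of all tested genes. H2-Q6, a nonclassical class I chain, stood at 12.0, 10.5 and 13.6 FPKM in EAM Trim21 KO hearts, against 22.1, 18.2 and 15.3 FPKM in EAM wild type hearts and 3.48 and 2.70 FPKM in control hearts (1.67, SE 0.18, adjusted p = 0.00248). H2-Q7 stood at 2.08, 1.97 and 1.76 FPKM in EAM Trim21 KO hearts, against 2.78, 2.76 and 1.95 FPKM in EAM wild type hearts and 0.392 and 0.331 FPKM in control hearts (1.11, SE 0.14, adjusted p = 0.00554). H2-Q4 stood at 12.6, 11.1 and 14.9 FPKM in EAM Trim21 KO hearts and 6.55 and 6.23 FPKM in control hearts (0.90, SE 0.18, adjusted p = 0.0456).

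The Q genes are near-identical copies whose reads may be shared, so their separate levels are uncertain. The classical chains had values above control without passing in the fit of all 8 libraries. H2-D1 passed under some alternatives and not others, for example with a pseudocount of 0.1 (adjusted p = 0.045) or with only the EAM Trim21 KO and control libraries (0.034). H2-K1 passed with the replicate number in the fit (0.00227), without EAM Trim21 KO heart 3 (0.0241) and without EAM wild type heart 3 (0.0406). The values below are from the fit of all 8 libraries. H2-K1 stood at 21.5, 18.9 and 11.3 FPKM in EAM Trim21 KO hearts and 5.67 and 5.80 FPKM in control hearts (adjusted p = 0.0733), and H2-D1 at 105, 88.7 and 99.7 FPKM in EAM Trim21 KO hearts and 55.0 and 58.5 FPKM in control hearts (adjusted p = 0.0519). B2m, the shared light chain, stood at 406, 365 and 535 FPKM in EAM Trim21 KO hearts, against 815, 679 and 863 FPKM in EAM wild type hearts and 252 and 282 FPKM in control hearts. B2m was lower in EAM Trim21 KO than in EAM wild type hearts (-0.86, adjusted p = 0.0294). Psmb8, an immunoproteasome subunit, stood at 4.09, 4.73 and 5.06 FPKM in EAM Trim21 KO hearts, against 9.52, 8.97 and 8.73 FPKM in EAM wild type hearts and 2.96 and 2.90 FPKM in control hearts. It was lower in EAM Trim21 KO than in EAM wild type hearts as well (-0.84, adjusted p = 0.00513). The call of H2-Q6 held with each library left out, while that of H2-Q7 was lost without control heart 1 (adjusted p = 0.0534) or 2 (0.0687) and that of H2-Q4 in 6 of the 8 leave-outs (up to 0.3, without control heart 2). Without EAM Trim21 KO hearts 1 and 2 the median of the list was 0.55, with 1 gene that rose. In whole hearts, fewer cells of a type and less RNA per cell cannot be told apart.

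MHC class II, carried by macrophages, dendritic cells and B cells, had no call among 11 tested genes, with a median change of 0.57. H2-Eb1 stood at 59.7, 54.5 and 29.6 FPKM in EAM Trim21 KO hearts, against 102, 105 and 69.7 FPKM in EAM wild type hearts and 15.6 and 21.1 FPKM in control hearts (1.29, adjusted p = 0.094). Cd74, the invariant chain, stood at 154, 145 and 124 FPKM in EAM Trim21 KO hearts, against 337, 325 and 211 FPKM in EAM wild type hearts and 70.1 and 108 FPKM in control hearts (0.69, adjusted p = 0.254). Both had all knockout hearts above both control hearts and below all EAM wild type hearts. H2-Ea-ps differed, since its knockout and control hearts overlapped, at 30.7, 30.4 and 42.4 FPKM in EAM Trim21 KO hearts and 28.4 and 33.3 FPKM in control hearts, while EAM wild type hearts had 157, 149.8 and 119.5 FPKM. Against EAM wild type hearts 7 of the 11 class II genes were lower in EAM Trim21 KO hearts. The third knockout heart, in which the atrial transcripts were near control levels, had the lowest H2-Eb1 and Cd74 of its group, and the part of the atrial tissue in these values was not tested. When EAM Trim21 KO heart 3 was left out, the class II chains H2-Aa (1.49, adjusted p = 0.0169), H2-Ab1 (1.49, adjusted p = 0.0382) and H2-Eb1 (1.60, adjusted p = 0.0158) passed as higher than control. With hearts 1 and 2 of that group left out instead, none passed and the class II median was 0.45.

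Of 40 tested interferon-inducible genes none passed, and 38 had a positive change, against 4642 of all 10393 tested genes. In 26 of all 46 genes of the list, tested or not, all knockout hearts lay above both control hearts, against 14.1% of all tested genes. The median change of the tested genes was 0.36, between 0.15 and 0.55 under the alternatives. The median was 0.49 without EAM Trim21 KO hearts 1 and 2, and there the interferon-induced GTPase genes Gbp4 (1.3, adjusted p = 0.046) and Tgtp1 (1.57, adjusted p = 0.0166) passed, both of which were highest in the third knockout heart. Gbp4 stood at 4.30, 4.51 and 7.79 FPKM in EAM Trim21 KO hearts and 2.29 and 2.89 FPKM in control hearts, and Tgtp1 at 1.52, 1.58 and 3.75 FPKM in EAM Trim21 KO hearts and 0.651 and 0.553 FPKM in control hearts. Tgtp1 has a near-identical copy with which it may share reads. Igtp, an interferon-gamma induced GTPase, stood at 3.23, 3.13 and 5.95 FPKM in EAM Trim21 KO hearts, against 8.88, 14.0 and 11.8 FPKM in EAM wild type hearts and 1.73 and 1.84 FPKM in control hearts (adjusted p = 0.161). It was lower in EAM Trim21 KO than in EAM wild type hearts (-1.32, adjusted p = 0.0173). Among 19 complement and Fc receptor genes Cfb, factor B of the alternative pathway, rose alone. It stood at 0.626, 1.04 and 0.687 FPKM in EAM Trim21 KO hearts, against 4.17, 4.02 and 3.87 FPKM in EAM wild type hearts and 0.111 and 0.0566 FPKM in control hearts (0.71, SE 0.13, adjusted p = 0.0324). Cfb was the only gene of the 59 that rose to be lower than in EAM wild type hearts by the test (-1.50, adjusted p = 0.00034). Its call against control was lost in 4 of the 8 leave-outs (adjusted p up to 0.245, without control heart 2). C3, the central component, stood at 27.1, 37.1 and 14.3 FPKM in EAM Trim21 KO hearts and 11.5 and 18.4 FPKM in control hearts (adjusted p = 0.508).

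**Figure D4:**
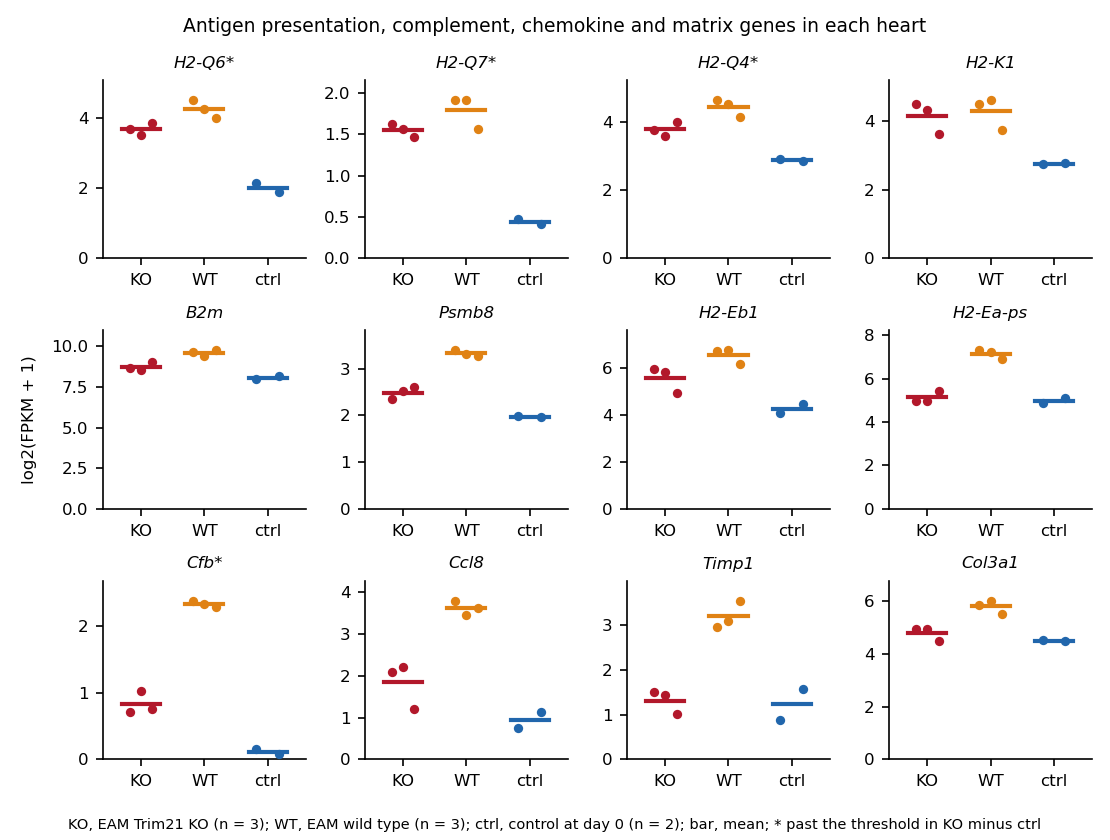
Level of 12 genes of antigen presentation, inflammation and matrix in each heart (points, log2(FPKM + 1), bars for the group means), with EAM Trim21 KO left of EAM wild type and control. H2-Q6 in EAM Trim21 KO hearts (10.5 to 13.6 FPKM) lies below EAM wild type and above control hearts, while H2-Ea-ps in EAM Trim21 KO hearts (30.4 to 42.4 FPKM) overlaps control.

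Among 16 tested chemokines 1 fell. Ccl24, an attractant of eosinophils made by resident macrophages, stood at 1.05, 0.805 and 1.04 FPKM in EAM Trim21 KO hearts and 1.97 and 2.91 FPKM in control hearts (-0.80, adjusted p = 0.0427). Its call was lost in 6 of the 8 leave-outs (adjusted p up to 0.324, without control heart 2). Ccl8, a monocyte attractant, stood at 3.27, 3.63 and 1.31 FPKM in EAM Trim21 KO hearts, against 12.8, 9.83 and 11.2 FPKM in EAM wild type hearts and 0.694 and 1.20 FPKM in control hearts. It did not pass against control (0.89, adjusted p = 0.183) and was lower than in EAM wild type hearts (-1.77, adjusted p = 0.00904). Il1b, the cytokine interleukin-1 beta, stood at 0.795, 0.869 and 0.831 FPKM in EAM Trim21 KO hearts and 0.151 and 0.173 FPKM in control hearts (adjusted p = 0.115). None of 13 tested markers of recruited monocytes and macrophages passed, with a median change of 0.12. Over all 17 markers of these cells in the list, tested or not, the summed level was 162 to 225 FPKM in EAM Trim21 KO hearts. It was 317 to 379 FPKM in EAM wild type hearts and 168 to 203 FPKM in control hearts, so that knockout and control hearts overlapped. Lyz2, the lysozyme of these cells, stood at 156, 146 and 111 FPKM in EAM Trim21 KO hearts, against 274, 280.4 and 227 FPKM in EAM wild type hearts and 115 and 136 FPKM in control hearts. Lyz2 was lower in EAM Trim21 KO than in EAM wild type hearts (-0.92, adjusted p = 0.0222). The median of the macrophage list changed sign without EAM Trim21 KO hearts 1 and 2.

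Of the genes in the title of the series, Il17a was listed at 0 in all 3 EAM Trim21 KO and both control hearts, and Il17ra and Traf3 did not reach the level for testing. Of 15 tested genes of IL-17 signalling 1 fell, with a median change of 0.00. It was Cebpb, a transcription factor downstream of the receptor that also answers to other signals. Cebpb stood at 24.3, 17.3 and 21.7 FPKM in EAM Trim21 KO hearts, against 35.4, 23.6 and 31.9 FPKM in EAM wild type hearts and 65.6 and 44.1 FPKM in control hearts (-1.32, SE 0.23, adjusted p = 0.0278). Both EAM groups lay below control. The call was lost without EAM Trim21 KO heart 2 (adjusted p = 0.102) or 3 (0.0511), or without control heart 1 (0.215) or 2 (0.0633).

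Matrix genes gave few calls. Of 29 tested fibrosis and matrix genes only Col8a1 passed, with a median change of -0.08. Col8a1, a short-chain collagen of vessel walls, stood at 2.76, 3.02 and 2.57 FPKM in EAM Trim21 KO hearts, against 6.0, 4.50 and 5.94 FPKM in EAM wild type hearts and 6.21 and 5.67 FPKM in control hearts (-0.88, SE 0.13, adjusted p = 0.0161). Col3a1, a main fibrillar collagen of scars, stood at 29.8, 29.5 and 21.7 FPKM in EAM Trim21 KO hearts, against 57.1, 63.5 and 45.1 FPKM in EAM wild type hearts and 21.8 and 21.4 FPKM in control hearts. It did not pass against control (0.30, adjusted p = 0.519) and was lower than in EAM wild type hearts (-1.01, adjusted p = 0.0173). Outside that list Col5a3, a minor fibrillar collagen, rose. It stood at 8.74, 9.21 and 8.49 FPKM in EAM Trim21 KO hearts and 3.91 and 2.87 FPKM in control hearts (1.17, SE 0.13, adjusted p = 0.00285). Without EAM Trim21 KO hearts 1 and 2 its change was 1.12. The call of Col5a3 held with each library left out, and that of Col8a1 was lost without control heart 1 (adjusted p = 0.149) or 2 (0.102).

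Of 14 tested matrix proteases and inhibitors, 2 inhibitors of metalloproteinases fell. Timp4 stood at 4.27, 3.50 and 4.58 FPKM in EAM Trim21 KO hearts, against 5.89, 6.02 and 10.04 FPKM in EAM wild type hearts and 20.2 and 15.5 FPKM in control hearts (-1.88, SE 0.22, adjusted p = 0.00416). Timp3, which is bound to matrix, stood at 19.5, 15.3 and 13.2 FPKM in EAM Trim21 KO hearts, against 33.5, 33.4 and 27.0 FPKM in EAM wild type hearts and 35.3 and 33.2 FPKM in control hearts (-1.07, SE 0.18, adjusted p = 0.0214). Timp1, the inhibitor induced in inflammation, stood at 1.83, 1.71 and 1.02 FPKM in EAM Trim21 KO hearts, against 6.83, 7.59 and 10.7 FPKM in EAM wild type hearts and 0.854 and 1.96 FPKM in control hearts. Its knockout and control hearts overlapped (0.09, adjusted p = 0.913), and the difference from EAM wild type hearts passed (-1.89, adjusted p = 0.00421). The call of Timp4 was lost without control heart 1 (adjusted p = 0.0534). The call of Timp3 was lost without EAM Trim21 KO heart 2 (0.0918) or control heart 1 (0.171) or 2 (0.167).

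In heart muscle, Rrad rose and Acta1 and Tcap fell. Rrad encodes RAD, a small GTPase that restrains the L-type calcium channel, and it stood at 137, 129.9 and 135 FPKM in EAM Trim21 KO hearts, against 60.1, 71.5 and 62.4 FPKM in EAM wild type hearts and 24.3 and 35.1 FPKM in control hearts (2.16, SE 0.17, adjusted p = 0.000485). The 3 groups did not overlap, and EAM Trim21 KO hearts were also above EAM wild type hearts by the test (1.04, adjusted p = 0.0105). Acta1, skeletal alpha-actin, which heart muscle also makes, stood at 1393, 1511 and 2614 FPKM in EAM Trim21 KO hearts, against 3315, 3193 and 4256 FPKM in EAM wild type hearts and 5148 and 5727 FPKM in control hearts (-1.62, SE 0.26, adjusted p = 0.0197). Tcap, the titin cap of the Z disc, stood at 1008, 939 and 749 FPKM in EAM Trim21 KO hearts, against 2272, 1852 and 1975 FPKM in EAM wild type hearts and 2099 and 2336 FPKM in control hearts (-1.31, SE 0.16, adjusted p = 0.00585). Rrad passed with each library left out. The call of Tcap was lost without control heart 1 (adjusted p = 0.0534) or 2 (0.0898). That of Acta1 was lost without EAM Trim21 KO heart 1 (0.0508) or 2 (0.073) and without control heart 1 (0.134) or 2 (0.192).

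The natriuretic peptides, whose rise is a common sign of a strained heart, did not pass. Nppb stood at 417, 411 and 517 FPKM in EAM Trim21 KO hearts, against 772, 650.4 and 1002 FPKM in EAM wild type hearts and 543 and 561 FPKM in control hearts (-0.31, adjusted p = 0.517). Nppa, which atria make in large amounts, stood at 2458, 2158 and 297 FPKM in EAM Trim21 KO hearts and 162 and 206 FPKM in control hearts (adjusted p = 0.328), with the high values in the hearts that held atrial transcripts. Of 18 contractile genes Tcap alone passed, 16 had a negative change and the median was -0.31. Among all 10393 tested genes 5749 had a negative change. All 45 nuclear genes of oxidative phosphorylation were tested and none passed, with 44 negative changes and a median of -0.26. In 33 of them all knockout hearts lay below both control hearts, against 22.4% of all tested genes. Fatty acid oxidation (21 tested, median -0.22), glycolysis (19 tested, median -0.20) and the constitutive proteasome (26 tested, median -0.23) had no call either. These medians depended on the scaling. After quantile normalization they were -0.08 for contractile genes, -0.11 for oxidative phosphorylation and -0.10 for fatty acid oxidation. They were -0.07 for glycolysis and -0.16 for the proteasome, against -0.01 for all genes. In the same order they were -0.27, -0.22, -0.18, -0.16 and -0.19 after scaling by median ratios, against 0.003 for all genes. Rescaled without mitochondrially encoded genes, they were -0.24, -0.18, -0.14, -0.12 and -0.16, against 0.03 for all genes. In FPKM all transcripts share 1 total, and the mitochondrially encoded genes took 40.3% to 43.6% of the summed FPKM, weighted by transcript length, in EAM Trim21 KO hearts and 36.5% to 39.1% in control hearts.

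Several of the largest changes were at genes with near-identical copies or unusual neighbours. Rpl29, a ribosomal protein gene, stood at 50.9, 49.2 and 47.5 FPKM in EAM Trim21 KO hearts, against 0.313, 0.343 and 0.619 FPKM in EAM wild type hearts and 0.798 and 0.459 FPKM in control hearts (4.95, SE 0.14, adjusted p = 3.53e-07). Gapdh, the glycolytic enzyme, stood at 22.9, 24.0 and 23.1 FPKM in EAM Trim21 KO hearts, against 3.72, 2.80 and 3.85 FPKM in EAM wild type hearts and 2.25 and 3.68 FPKM in control hearts (2.64, SE 0.17, adjusted p = 0.000156). Both genes have many processed pseudogenes between which reads can be divided, so these values are uncertain as levels of the genes. Aqp6, a water channel gene on chromosome 15, stood at 0.0324, 0 and 0 FPKM in EAM Trim21 KO hearts, against 20.4, 23.03 and 26.7 FPKM in EAM wild type hearts and 34.0 and 26.4 FPKM in control hearts (-4.94, SE 0.15, adjusted p = 3.62e-07). For each of these 3 genes the EAM wild type and control hearts overlapped, and all 3 knockout hearts stood apart.

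On chromosome 17, Dynlt1b (chr17:6430112-6436293), a dynein light chain gene, stood at 1.39, 1.41 and 1.35 FPKM in EAM Trim21 KO hearts, against 10.9, 13.5 and 14.2 FPKM in EAM wild type hearts and 14.5 and 11.0 FPKM in control hearts (-2.51, SE 0.15, adjusted p = 8.07e-05). Its neighbours Dynlt1a (-0.99, adjusted p = 0.0143), Tmem181a (-1.07, adjusted p = 0.0136) and Tmem181b-ps (-1.55, adjusted p = 0.000547) also fell, and were named here after their values were seen. Dynlt1b and Dynlt1a, like the Tmem181 genes, are copies of each other, so reads may be split between them. The calls of Dynlt1a and Tmem181a were lost without EAM Trim21 KO heart 2 (adjusted p = 0.0557 and 0.0528), without control heart 1 (0.134 and 0.14) or without control heart 2 (0.107 and 0.0509). The calls of Rpl29, Gapdh, Aqp6, Dynlt1b and Tmem181b-ps held with each library left out.

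Genes close to Trim21 on chromosome 7 were counted apart. Within 5 Mb of Trim21, which was itself left out of the count, 72 genes were tested and 4 passed (5.56%, against 1.37% of all genes), 3 up and 1 down. Trim12a, a relative of Trim21 in the same gene cluster, stood at 1.10, 1.34 and 1.31 FPKM in EAM Trim21 KO hearts and was listed at 0 in every EAM wild type and control heart (adjusted p = 0.00273). Its change from control was 1.17, and 1.21 without EAM Trim21 KO hearts 1 and 2. Trim34a, another relative, stood at 1.33, 1.55 and 1.67 FPKM in EAM Trim21 KO hearts and 0.435 and 0.426 FPKM in control hearts (0.81, adjusted p = 0.0391). The adult beta-globin genes of red cells moved in opposite directions. Hbb-bt stood at 74.9, 58.1 and 62.2 FPKM in EAM Trim21 KO hearts, against 15.4, 9.10 and 10.2 FPKM in EAM wild type hearts and 8.66 and 22.7 FPKM in control hearts (2.12, SE 0.35, adjusted p = 0.0211). Hbb-bs stood at 55.8, 47.0 and 62.6 FPKM in EAM Trim21 KO hearts, against 77.1, 148 and 88.0 FPKM in EAM wild type hearts and 136 and 157 FPKM in control hearts (-1.40, SE 0.26, adjusted p = 0.0375). These are near-identical copies whose reads may be shared, so their separate levels are uncertain. The call of Trim12a held with each library left out and was lost with a pseudocount of 0.1. Those of Trim34a and Hbb-bs were each lost in 5 of the 8 leave-outs (adjusted p up to 0.252 and 0.285, without control heart 2), and that of Hbb-bt in 3 (up to 0.101, without control heart 1).

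Among the remaining genes with the largest rises, Slc41a3, a magnesium transporter, stood at 16.3, 25.9 and 20.4 FPKM in EAM Trim21 KO hearts and 3.29 and 4.06 FPKM in control hearts (2.21, SE 0.33, adjusted p = 0.0155). Kdr, the main VEGF receptor of endothelial cells, stood at 27.5, 32.9 and 36.0 FPKM in EAM Trim21 KO hearts, against 30.2, 25.2 and 27.3 FPKM in EAM wild type hearts and 17.9 and 13.2 FPKM in control hearts (1.01, adjusted p = 0.0247). It was the 1 endothelial marker of 12 that passed, and the median of that list was 0.19. Nos2, the inducible nitric oxide synthase, stood at 7.96, 8.26 and 8.15 FPKM in EAM Trim21 KO hearts, against 6.12, 8.23 and 8.32 FPKM in EAM wild type hearts and 4.03 and 3.75 FPKM in control hearts (0.90, adjusted p = 0.0161). Pim1, a kinase induced by cytokines, stood at 7.49, 8.38 and 7.09 FPKM in EAM Trim21 KO hearts and 3.54 and 3.20 FPKM in control hearts (0.98, adjusted p = 0.00757). All 4 calls were lost without control heart 1 (Slc41a3 0.14, Kdr 0.0584, Nos2 0.112, Pim1 0.0629) and without control heart 2 (0.101, 0.25, 0.174 and 0.101). Without EAM Trim21 KO heart 2 those of Slc41a3 (0.0557), Kdr (0.1) and Nos2 (0.0648) were lost, and without EAM Trim21 KO heart 3 that of Kdr (0.0577).

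Among the remaining genes with the largest falls, Fam46b, a poly(A) polymerase relative, stood at 2.31, 1.43 and 0.721 FPKM in EAM Trim21 KO hearts and 11.4 and 9.87 FPKM in control hearts (-2.28, SE 0.25, adjusted p = 0.00319). Acer2, an alkaline ceramidase, stood at 3.63, 3.19 and 2.38 FPKM in EAM Trim21 KO hearts and 10.7 and 9.90 FPKM in control hearts (-1.49, SE 0.15, adjusted p = 0.00234). Adh1, an alcohol dehydrogenase that also oxidises retinol, stood at 6.80, 4.41 and 4.55 FPKM in EAM Trim21 KO hearts, against 5.99, 6.62 and 6.86 FPKM in EAM wild type hearts and 16.3 and 16.2 FPKM in control hearts (-1.49, SE 0.16, adjusted p = 0.0031). The difference between the EAM groups did not pass for Adh1 (-0.28, adjusted p = 0.325), whereas Fam46b (-1.50, adjusted p = 0.0137) and Acer2 (-1.09, adjusted p = 0.00592) were lower in EAM Trim21 KO than in EAM wild type hearts. The calls of Fam46b, Acer2 and Adh1 held with each library left out.

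Over the 52 gene lists examined, 18 had at least 1 member that passed and 34 had none. Of the 142 genes, 36 stood in a list and 106 in none. Among lists with at least 4 tested members the clock lists had the largest shares of called members, 8 of 11 that fell and 2 of 4 that rose, followed by the glucocorticoid-responsive list with 6 of 14 that fell. The atrial list had the highest median change of the lists with at least 3 tested members (2.88) without a call, and this median was -0.02 without EAM Trim21 KO hearts 1 and 2.

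**Figure D5:**
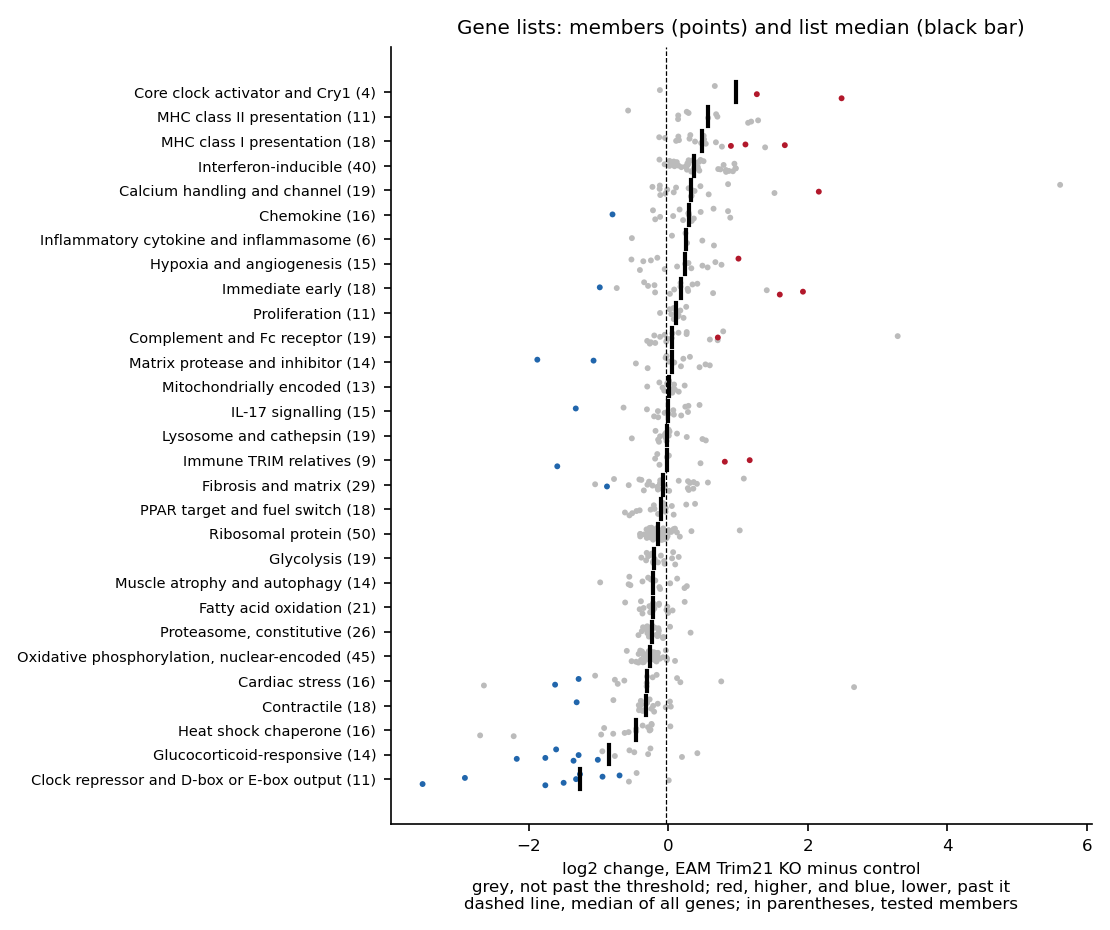
Log2 change in EAM Trim21 KO minus control hearts of the tested members of each pathway list (points, coloured where past the threshold), with the list median as a black bar and the median of all tested genes (-0.03) as a dashed line. The list of clock activators, which also holds Cry1 and Nfil3, has the highest median, 0.97, and clock repressor and output genes the lowest, -1.26.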

How the data were processed

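Whole hearts were profiled by bulk RNA-seq after enrichment of messenger RNA, per the labels' protocols. The authors deposited FPKM values for 34745 genes, not read counts. HISAT2 2.0.4, StringTie 1.3.3b, edgeR and mm10 are named, per the submitters' processing notes, without roles or order. The annotation release and the strandedness were not given in the sources used here, and reads of overlapping or antisense genes may therefore be mixed. A second deposited sheet pairs library names, and its earlier names put the EAM hearts at day 35, where the labels say day 21. The labels do not say how libraries of a group relate to animals, so a p-value reflects the spread among these libraries, which may be technical. Depth came from the steps of low FPKM values, which were whole fragments (within 0.02 fragments, up to 20) for 92.9% to 93.6% of the low genes with 1 transcript. The size of a step depends on the gene's length and transcripts, so no count test was run.

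Genes with at least 1 FPKM in at least 2 of 8 libraries were tested on log2(FPKM + 1) with limma 3.58.1 (R 4.3.3) and a mean-variance trend. All 8 libraries and 3 groups entered 1 fit with 5 residual degrees of freedom, and p-values were adjusted over all 10393 genes by the Benjamini-Hochberg method at 0.05. The EAM Trim21 KO minus EAM wild type contrast of the same fit tests the difference between the EAM groups. Changes of both EAM groups from control share the control libraries and are given only side by side. The comparison, the 52 gene lists and the rule for named genes were chosen with earlier results of these data known, so no list adds independent support. The rule named Trim21, the 15 largest rises and the 15 largest falls among called genes with a mean of at least 5 FPKM in the higher group, the called members of each list, and a fixed set. Not every gene so named is reported here. Lists were described by counts and medians, with no set test. Promoter windows came from RefSeq (GRCm38.p6). The fit was also run on simulated data, with 100 genes changed by 1 and 100 by 2 on the log2 scale in EAM Trim21 KO libraries. It recovered 74% and 99% of them, with 10 false calls among 183. The simulated noise was independent between libraries and held no atrial split, so these shares may not carry over to these hearts. A total of 22 alternatives were run.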

Additional observations from a re-analysis of the deposited data

How the results depend on the processing

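The counts of genes that passed between EAM Trim21 KO and control hearts were 59 up and 83 down. They were 25 up and 48 down with no filter on low values, and 21 up and 46 down with a mean of at least 5 FPKM. They were 19 up and 31 down with the atrial level as a covariate, and 19 up and 27 down without EAM Trim21 KO hearts 1 and 2. Without the 3 libraries high in atrial transcripts, an alternative chosen after seeing the data, they were 18 up and 22 down. Leaving out 1 library at a time gave 11 to 93 up and 21 to 100 down. Pseudocounts of 0.1 and 5, median-ratio and quantile scaling, rescaling without mitochondrially encoded genes, fitting only the 5 libraries, no trend and a robust fit kept both counts within 1.5 times. Among 50 named calls 19 held with each library left out in turn, and none of the 50 changed direction under an alternative. Named genes that did not pass could change direction, as Nr1d1 did (-0.74 to 0.76). With the replicate number as a block 53 rose and 69 fell, and 87 of the 142 genes were kept. H2-Aa (adjusted p = 0.0214), H2-Ab1 (0.0123), H2-Eb1 (0.0111), Hspa1a (0.0411) and Hspa1b (0.0318) passed only here and under alternatives given with them above. The plasma cell genes Igkc (0.000202) and Jchain (0.0111) and the complement genes C3 (0.0179) and C4b (0.0188) passed only here. Ighm passed here and without EAM Trim21 KO heart 3, and H2-K1 passed here as given above. The labels tie no number to an animal. Same-numbered libraries had correlations of -0.197 to 0.355 in their deviations from the group means. Differently numbered libraries were not compared in this way, so these values cannot decide whether the numbers pair the libraries. The cause of these changes in count was not tested.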

Other observations

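Some called genes outside the lists have known roles in immunity, vessels and conduction, and were chosen after their values were seen. Cd274, the inhibitory ligand PD-L1, stood at 2.82, 3.03 and 4.08 FPKM in EAM Trim21 KO hearts, against 2.67, 4.11 and 2.66 FPKM in EAM wild type hearts and 0.979 and 1.05 FPKM in control hearts (log2 change from control 1.09, SE 0.18, adjusted p = 0.0211). Socs1, the feedback inhibitor of cytokine receptors, stood at 1.26, 1.68 and 1.502 FPKM in EAM Trim21 KO hearts and 0.533 and 0.334 FPKM in control hearts (0.79, adjusted p = 0.0211). Tnfsf10, the death ligand TRAIL, stood at 3.94, 3.12 and 4.40 FPKM in EAM Trim21 KO hearts and 1.58 and 1.66 FPKM in control hearts (0.87, adjusted p = 0.02). In all 3 the EAM groups overlapped. Fas, a death receptor, fell instead, at 3.41, 2.77 and 3.46 FPKM in EAM Trim21 KO hearts, against 5.87, 5.47 and 5.04 FPKM in EAM wild type hearts and 8.33 and 8.04 FPKM in control hearts (-1.13, SE 0.12, adjusted p = 0.00245). The call of Fas held with each library left out, and its change was -1.04 without EAM Trim21 KO hearts 1 and 2. Those of Cd274, Socs1 and Tnfsf10 were lost without control heart 1 (adjusted p = 0.16, 0.0853 and 0.158) or 2 (0.167, 0.238 and 0.164). Those of Cd274 (0.0629) and Socs1 (0.0917) were also lost without EAM Trim21 KO heart 2, and that of Tnfsf10 (0.0591) without EAM Trim21 KO heart 1.

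Kcna5, a potassium channel gene of heart muscle, stood at 11.99, 11.3 and 10.5 FPKM in EAM Trim21 KO hearts, against 19.0, 18.9 and 22.5 FPKM in EAM wild type hearts and 28.6 and 20.6 FPKM in control hearts (-1.05, SE 0.16, adjusted p = 0.0161). Its call was lost without EAM Trim21 KO heart 2 (adjusted p = 0.0629) or control heart 1 (0.14). Bmp4, a growth factor of endothelial and mesenchymal cells, stood at 1.43, 1.3 and 1.13 FPKM in EAM Trim21 KO hearts and 2.85 and 3.42 FPKM in control hearts (-0.85, SE 0.12, adjusted p = 0.011). Its call was lost without control heart 1 (0.0542) or 2 (0.146). Spon2, a secreted matrix protein, stood at 2.32, 2.17 and 2.80 FPKM in EAM Trim21 KO hearts, against 0.725, 0.599 and 0.533 FPKM in EAM wild type hearts and 0.187 and 0.150 FPKM in control hearts (1.55, SE 0.13, adjusted p = 0.000547), and this call held with each library left out.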
